A study of Mus musculus with 2 samples.

Results

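Voltage-gated sodium channels and the sodium leak channel Nalcn were described in nuclei of the ventrolateral periaqueductal gray (vlPAG), a midbrain region, as 9 genes chosen by name out of the 55450 in the deposited matrices. They are the pore subunit genes Scn1a, Scn2a, Scn3a, Scn8a and Scn9a, the β subunit genes Scn2b, Scn3b and Scn4b, and Nalcn. All 9 were in both matrices, and 8 had at least 100 unique molecular identifiers (UMIs, 1 per captured RNA molecule) over both libraries in GABAergic nuclei. Scn4b was the exception, with 34 UMIs in all kept HFD nuclei and 18 in all kept NFD nuclei.

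A voltage-gated sodium channel is a single large pore protein that opens on depolarization and carries the rising phase of the action potential. The β subunits are small membrane proteins that bind the pore, change its gating and its amount at the surface, and also act in cell adhesion. Nalcn forms a channel that lets sodium leak in at rest and so helps set the resting potential and tonic firing of neurons.

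The tissue came from wild-type C57/BL6J mice that were 8 weeks old when the diets began. HFD mice ate a high-fat diet and NFD mice normal chow, in both cases for 7 weeks. Each diet is 1 library of nuclei from 18 mice, so mice cannot be told apart, there is no replicate, and no test between diets was made. Every interval below is a 95% interval and covers counting error only.

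After the filter on depth and mitochondrial counts, 6322 of 6813 HFD barcodes and 7500 of 7625 NFD barcodes were kept, with medians of 7347.5 UMIs per HFD nucleus and 4504.5 per NFD nucleus. The kept nuclei of the libraries shared 12 barcodes. They formed 23 clusters, which were named from marker genes where these allowed it. Of these, 12 were vlPAG neuronal clusters, and 2 clusters stayed unnamed. Neuronal clusters 0 and 6 are called by number. Cluster 0 had no transmitter ahead by 2-fold. Cluster 6 had 166 CPM of glutamatergic and 16.3 CPM of GABAergic transmitter genes, but its 10 leading genes held the fibroblast marker Bnc2 and no glutamatergic marker, so it was not put in the class. GABAergic nuclei (clusters 2, 3, 4, 7 and 11) numbered 2080 in HFD and 2587 in NFD, and glutamatergic nuclei (clusters 1, 12 and 18) 1044 and 1352. Cluster 4 passed the 2-fold rule narrowly, with 249 CPM of GABAergic and 115 CPM of glutamatergic transmitter genes. The make-up of the GABAergic class differed, with 477 HFD and 1085 NFD nuclei in cluster 2 and 582 and 534 in cluster 3. Serotonergic nuclei (cluster 9, led by Tph2, Slc6a4 and Slc18a2) numbered 163 and 259, and dopaminergic nuclei (cluster 13, with Th and Dlk1 among the leading genes) 128 and 225. Cerebellar granule neuron-like nuclei, led by Gabra6, numbered 764 in HFD and 10 in NFD, and molecular layer interneuron-like nuclei 61 and 8. For these clusters only HFD levels are given, and they were kept out of the neuronal total.

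The members lie on 4 chromosomes (GRCm38, GENCODE M21). Chromosome 2 holds Scn3a (ENSMUSG00000057182, chr2:65457118-65567627, minus strand), Scn2a (ENSMUSG00000075318, chr2:65620771-65767447, plus strand), Scn1a (ENSMUSG00000064329, chr2:66270778-66440840, minus strand) and Scn9a (ENSMUSG00000075316, chr2:66480080-66634962, minus strand). These 4 genes span 1178 kb, and 39.2 kb separate Scn1a from Scn9a. Chromosome 9 holds Scn3b (ENSMUSG00000049281, chr9:40269217-40291618, plus strand), Scn2b (ENSMUSG00000070304, chr9:45117782-45130070, plus strand) and Scn4b (ENSMUSG00000046480, chr9:45138395-45154152, plus strand). Nalcn (ENSMUSG00000000197) is at chr14:123276634-123627144 on the minus strand, and Scn8a (ENSMUSG00000023033) at chr15:100869858-101045938 on the plus strand. 5 members overlap an antisense gene model with UMIs. The largest is Gm13629 at Scn9a, with 10542 UMIs against 20070 of Scn9a. Use of strand in the counting is not stated in the sources read here.

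The neighbours Scn1a and Scn9a ordered the neuronal groups differently, as the levels below show, so the 250 bases before each RefSeq start (GRCm38.p6) are printed here. Both read 5′ to 3′ on the minus strand, Scn1a at chr2:66440838-66441087 and Scn9a at chr2:66634963-66635212. Capitals mark E-boxes, written CANNTG.
Scn1a: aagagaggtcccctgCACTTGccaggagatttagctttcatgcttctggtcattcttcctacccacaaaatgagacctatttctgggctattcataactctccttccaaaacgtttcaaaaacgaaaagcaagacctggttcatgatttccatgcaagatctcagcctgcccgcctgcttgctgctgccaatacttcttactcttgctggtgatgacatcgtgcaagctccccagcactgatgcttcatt
Scn9a: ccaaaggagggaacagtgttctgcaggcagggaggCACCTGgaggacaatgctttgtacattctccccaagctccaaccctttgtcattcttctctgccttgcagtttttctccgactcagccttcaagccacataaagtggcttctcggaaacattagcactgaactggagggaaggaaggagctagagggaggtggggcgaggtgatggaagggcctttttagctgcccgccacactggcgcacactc
Each window held 1 E-box on either strand, as do 66.2% of 32851 RefSeq mouse promoters of this length with at least 1. Neither window held GGGCGG (32.7% of promoters) or TATAAA (12.4%). The Scn1a window held 4 CpG at 46.8% GC, and the Scn9a window 5 CpG at 54.4% GC, beside medians of 6 CpG and 52.4% GC. RefSeq windows were found for 7 of the 9 members, and Scn3a and Scn3b had no entry.

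Levels of a gene were taken as its UMIs per 1000000 summed UMIs of the same cell group and library (CPM), which compares groups for a gene but not genes with each other. Of the 9 members, 8 had a higher CPM in neuronal than in non-neuronal nuclei in both libraries, beside 38.1% of 16345 genes. Scn4b was the exception. Groups are called apart below where their ranges over the 2 libraries did not overlap, a rule that leaves counting error out.

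Scn9a, the pore gene best known from pain-sensing peripheral neurons, was highest in serotonergic nuclei among the classes. Its level there was 434 CPM in HFD (410 to 458) and 350 CPM in NFD (325 to 377). Dopaminergic nuclei held 307 CPM in HFD and 271 CPM in NFD, GABAergic nuclei 251 and 243 CPM, and glutamatergic nuclei 174 and 176 CPM. The serotonergic, dopaminergic and GABAergic ranges stood apart from each other in that order. By counting, NFD dopaminergic over GABAergic nuclei was at a log2 difference of 0.16 (-0.001 to 0.31), which includes 0. Within the GABAergic class, however, cluster 11 (led by 9030622O22Rik, Sst and Prox1) held 357 CPM in HFD and 362 CPM in NFD, which overlaps the serotonergic range and exceeds its NFD value. Glutamatergic cluster 18 held 253 CPM in HFD and 299 CPM in NFD, which overlaps the dopaminergic range. Serotonergic nuclei exceeded GABAergic nuclei in Scn9a CPM by a log2 difference of 0.79 in HFD (0.70 to 0.88) and 0.53 in NFD (0.41 to 0.64). Depth per nucleus differed between these groups, with medians of 16128 UMIs (HFD) and 5665 (NFD) in serotonergic nuclei, 8660 and 5055 in GABAergic nuclei and 2708 and 1775.5 in astrocytes. After each nucleus was thinned to 2000 UMIs, a Scn9a UMI was present in 56.2% of HFD serotonergic nuclei (48.2 to 63.9) and 45.1% of NFD serotonergic nuclei (38.9 to 51.4). In GABAergic nuclei the thinned shares were 36.5% in HFD and 34.3% in NFD, and in astrocytes 1.24 and 2.21%. Astrocytes are a low background among the non-neuronal groups. Their summed neuronal markers, listed below, were at 6.04% (HFD) and 5.50% (NFD) of the neuronal level. In microglia these markers were at 43.6 and 25.5%. Without thinning, the serotonergic shares were 92.6% in HFD and 75.7% in NFD. The antisense model Gm13629 did not share this order: it had 80.3 CPM in HFD and 95.3 CPM in NFD serotonergic nuclei, below 113 and 128 CPM in GABAergic nuclei.

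Scn3a, a pore gene with a strong role in the developing brain, was highest in dopaminergic nuclei. They held 583 CPM in HFD (545 to 623) and 533 CPM in NFD (495 to 573), apart from every other group. GABAergic nuclei followed with 302 and 303 CPM, glutamatergic nuclei had 280 and 282 CPM, and serotonergic nuclei 252 and 281 CPM. The log2 difference of dopaminergic over GABAergic nuclei was 0.95 in HFD (0.84 to 1.05) and 0.81 in NFD (0.70 to 0.93). Median depth was 10502 UMIs in HFD and 5248 in NFD dopaminergic nuclei. Thinned shares of nuclei with a Scn3a UMI were 57.0% in HFD and 63.0% in NFD dopaminergic nuclei, 45.6 and 44.3% in GABAergic nuclei and 1.24 and 2.21% in astrocytes. Without thinning they were 97.7 and 88.0% in dopaminergic nuclei.

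Scn1a, a pore gene whose loss of function causes epilepsy, was lower in serotonergic and dopaminergic nuclei than in the other neuronal groups. Serotonergic nuclei held 255 CPM in HFD and 287 CPM in NFD, and dopaminergic nuclei 244 and 287 CPM, which overlap. GABAergic nuclei held 397 CPM in HFD and 450 CPM in NFD, and glutamatergic nuclei 382 and 432 CPM, which overlap as well. Cluster 6, led by Arhgap15, Bnc2 and Npsr1, stood above these class sums at 476 CPM in HFD and 488 CPM in NFD, within the range of GABAergic cluster 2 (430 and 494 CPM). The log2 difference of serotonergic over GABAergic nuclei was -0.64 in HFD (-0.75 to -0.53) and -0.65 in NFD (-0.77 to -0.53). For dopaminergic over GABAergic nuclei it was -0.70 in HFD (-0.86 to -0.55) and -0.65 in NFD (-0.80 to -0.50). Scn1a was thus lowest among these classes in the pair where Scn9a was highest. Over the 12 neuronal clusters, which share 2 libraries and whose points also differ in depth, Pearson's r of their log2 levels was -0.65.

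Scn8a, a pore gene concentrated at the axon initial segment and nodes, shared the low dopaminergic position of Scn1a. Dopaminergic nuclei held 158 CPM in HFD and 167 CPM in NFD. Serotonergic nuclei stood above them at 190 and 189 CPM, GABAergic nuclei above those at 218 and 215 CPM, and glutamatergic nuclei at 241 and 220 CPM. None of these 4 ranges overlapped its neighbour, but of single clusters only the dopaminergic one stood apart from the next. Counting intervals of some NFD steps included 0. The log2 difference in NFD was 0.04 (-0.05 to 0.12) for glutamatergic over GABAergic nuclei. For serotonergic over dopaminergic nuclei it was 0.18 (-0.06 to 0.42). The log2 difference of dopaminergic over GABAergic nuclei was -0.47 in HFD (-0.66 to -0.28) and -0.36 in NFD (-0.56 to -0.17).

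Scn2a, a pore gene of axons and immature initial segments, was nearly level across the vlPAG neuronal groups. GABAergic nuclei held 496 CPM in HFD and 516 CPM in NFD, glutamatergic nuclei 496 and 496 CPM, serotonergic nuclei 495 and 549 CPM, and dopaminergic nuclei 490 and 550 CPM. All of these ranges overlapped.

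The granule neuron-like nuclei of the HFD library had a different set. There Scn2a stood at 1355 CPM (1296 to 1416), a log2 difference of 1.45 over HFD GABAergic nuclei (1.38 to 1.52). Scn3a and Scn9a were both at 21.9 CPM, with 32 UMIs each, against 302 and 251 CPM in HFD GABAergic nuclei. Scn1a was at 550 CPM and Scn8a at 412 CPM. The median depth of these nuclei was 1709 UMIs. The HFD molecular layer interneuron-like nuclei held 727 CPM of Scn1a (600 to 873) and 449 CPM of Scn8a (351 to 566), and 50.6 CPM of Scn9a.

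**Figure D1:**
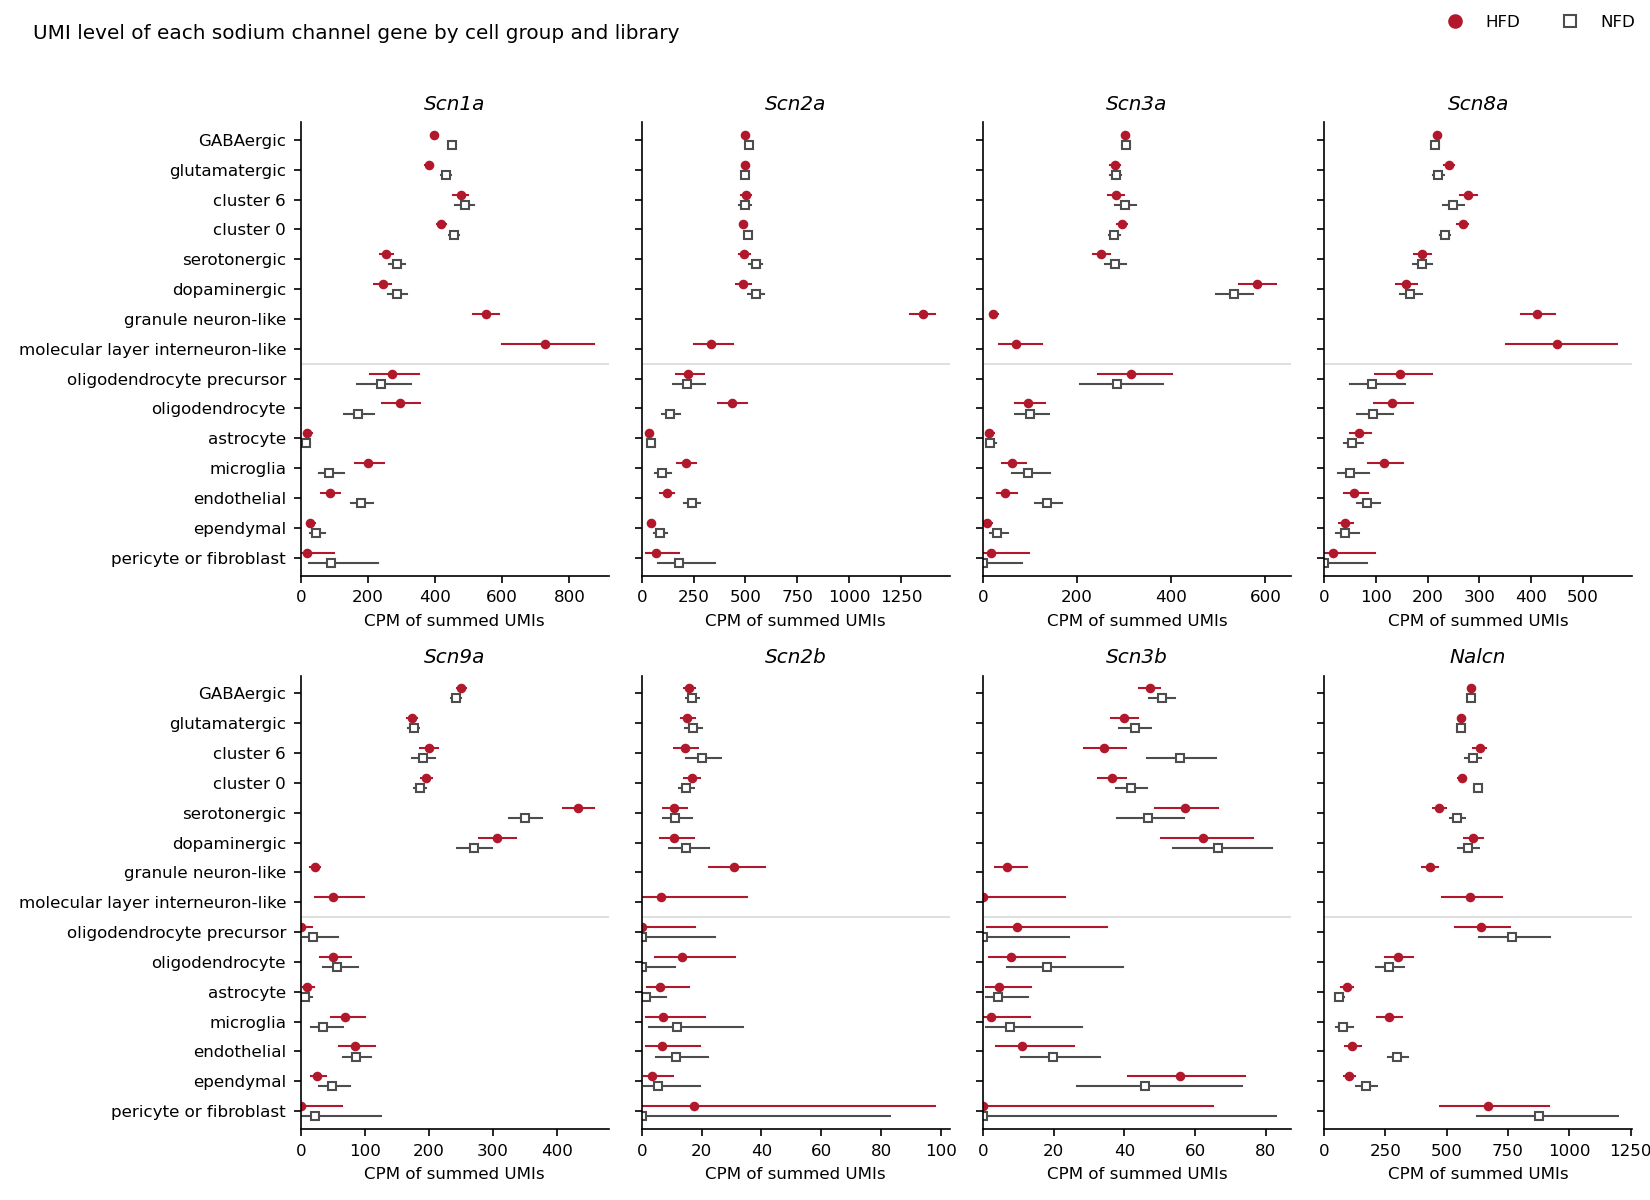
Levels of 8 members in the cell groups, in CPM, with HFD and NFD points side by side and bars for the Poisson intervals of counting. Among the groups drawn, Scn9a is highest in serotonergic nuclei (434 CPM in HFD, 350 CPM in NFD; GABAergic cluster 11, not drawn, overlaps this) and Scn3a in dopaminergic nuclei (583 and 533 CPM), while Scn1a is lower in both than in GABAergic nuclei.

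As shares of the summed UMIs of the 5 pore genes, Scn9a, Scn3a and Scn1a lay on the same side of GABAergic nuclei as above. Such shares use the same UMIs as the levels, so they are not separate support. Scn9a took 26.7% of the summed UMIs in HFD and 21.2% in NFD serotonergic nuclei, and 15.1 and 14.1% in GABAergic nuclei. Scn3a took 32.7% in HFD and 29.5% in NFD dopaminergic nuclei, and 18.1 and 17.6% in GABAergic nuclei. Scn1a took 15.7 and 17.3% in serotonergic, 13.7 and 15.9% in dopaminergic and 23.9 and 26.1% in GABAergic nuclei. The sum of the 5 differed less between these groups. It was 1624 CPM in HFD and 1656 CPM in NFD serotonergic nuclei, 1782 and 1808 CPM in dopaminergic nuclei, and 1665 and 1727 CPM in GABAergic nuclei. In HFD granule neuron-like nuclei it was 2360 CPM, of which Scn2a took 57.4%, and in astrocytes 143 CPM in HFD and 137 CPM in NFD. After thinning, 95.6% of HFD and 96.0% of NFD GABAergic nuclei had a UMI of at least 1 pore gene, beside 25.5 and 19.1% of astrocytes. Before thinning, Scn8a gave 44 of the 93 HFD and 37 of the 94 NFD pore UMIs in astrocytes. Without thinning the GABAergic shares were 99.8 and 97.5%.

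The β subunits had few UMIs. Scn3b, whose product binds the pore without a covalent bond, was highest in dopaminergic nuclei. They held 62.3 CPM in HFD and 66.6 CPM in NFD, on 93 and 91 UMIs, apart from the next group by the range rule. By counting, HFD serotonergic over dopaminergic nuclei was at a log2 difference of -0.13 (-0.50 to 0.26). Of single clusters, GABAergic cluster 4 held 52.0 CPM in HFD and 61.9 CPM in NFD. Serotonergic nuclei held 57.1 and 46.7 CPM, GABAergic nuclei 47.1 and 50.6 CPM, and glutamatergic nuclei 40.0 and 42.9 CPM. Scn2b, whose product is tethered to the pore by a disulfide bond, stood at 15.9 CPM in HFD and 16.8 CPM in NFD GABAergic nuclei and at 30.8 CPM in HFD granule neuron-like nuclei (22.4 to 41.2). Scn4b, the β subunit known for resurgent current, had 6 UMIs in HFD and 4 in NFD GABAergic nuclei, and 8 and 1 in glutamatergic nuclei. It had 0 UMIs in serotonergic and dopaminergic nuclei of either library, which allows up to 1.03 CPM in HFD and 1.44 CPM in NFD serotonergic nuclei from 3 counts. The highest neuronal level was in cluster 0, at 1.51 CPM in HFD and 1.13 CPM in NFD, on 14 and 10 UMIs. GABAergic cluster 2 followed at 0.87 and 0.75 CPM. The NFD bound of 1.44 CPM for serotonergic nuclei lies above the NFD level of cluster 0, so the 0 count there does not place them below it. The log2 difference of cluster 0 over GABAergic nuclei was 2.36 in HFD (0.89 to 4.03) and 2.08 in NFD (0.29 to 4.21). Counts this low gave no order among the other groups.

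Nalcn had its lowest class sum among vlPAG neurons in serotonergic nuclei, though in NFD this lay near the glutamatergic sum. It stood at 599 CPM in HFD and 600 CPM in NFD GABAergic nuclei, 559 and 560 CPM in glutamatergic nuclei, and 608 and 588 CPM in dopaminergic nuclei. Serotonergic nuclei held 470 CPM in HFD and 544 CPM in NFD, a log2 difference over GABAergic nuclei of -0.35 in HFD (-0.43 to -0.27) and -0.14 in NFD (-0.23 to -0.05). For glutamatergic over GABAergic nuclei it was -0.10 in HFD (-0.14 to -0.05) and -0.10 in NFD (-0.15 to -0.05). Within the glutamatergic class the clusters stood apart, with cluster 12 at 672 CPM in HFD and 694 CPM in NFD and cluster 18 at 438 and 514 CPM. The range of cluster 12 overlapped those of pericyte or fibroblast nuclei (669 and 876 CPM) and of oligodendrocyte precursors, which are described below.

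Within the GABAergic class, 1767 HFD and 1908 NFD nuclei with a UMI of Slc32a1, Gad1 or Gad2 were split into 9 subclusters. Scn9a was highest in subcluster 2 (led by 9030622O22Rik, Foxp2 and Cobll1), at 357 CPM in HFD and 361 CPM in NFD. Subcluster 7 (led by Cdh23, Sntg2 and Gli3) followed at 337 and 347 CPM, and subcluster 0 (led by Meis2, Tfap2b and Tshz2) was low at 184 and 188 CPM. The HFD and NFD points of each of these subclusters lay close together beside the spread between subclusters. Subcluster 8, led by Vmn1r209, differed in this. Scn9a was there at 221 CPM in HFD (176 to 274, 46 nuclei) and 128 CPM in NFD (97.8 to 163, 96 nuclei). The log2 ratio was 0.79 (0.30 to 1.29), on 82 and 62 UMIs at median depths of 7653 and 4439 UMIs. It is 1 of 9 subclusters, and the share of all genes with a ratio this large was not computed for subclusters. Scn3a was highest in subcluster 7, at 433 CPM in HFD and 424 CPM in NFD, and lowest in subcluster 6 (led by Reln, St18 and Arpp21), at 186 and 192 CPM. Scn1a was instead high in subcluster 6, at 510 CPM in HFD and 524 CPM in NFD, overlapping subcluster 8 (512 and 508 CPM). In subcluster 7 it was at 336 and 396 CPM. Its lowest mean level was in subcluster 3 (led by Cacna2d1, Rnf220 and Sim1), at 305 and 368 CPM, which overlaps subcluster 7. Between whole clusters, Scn9a in cluster 11 exceeded cluster 3 by a log2 difference of 0.49 in HFD (0.37 to 0.61) and 0.42 in NFD (0.27 to 0.57).

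**Figure D2:**
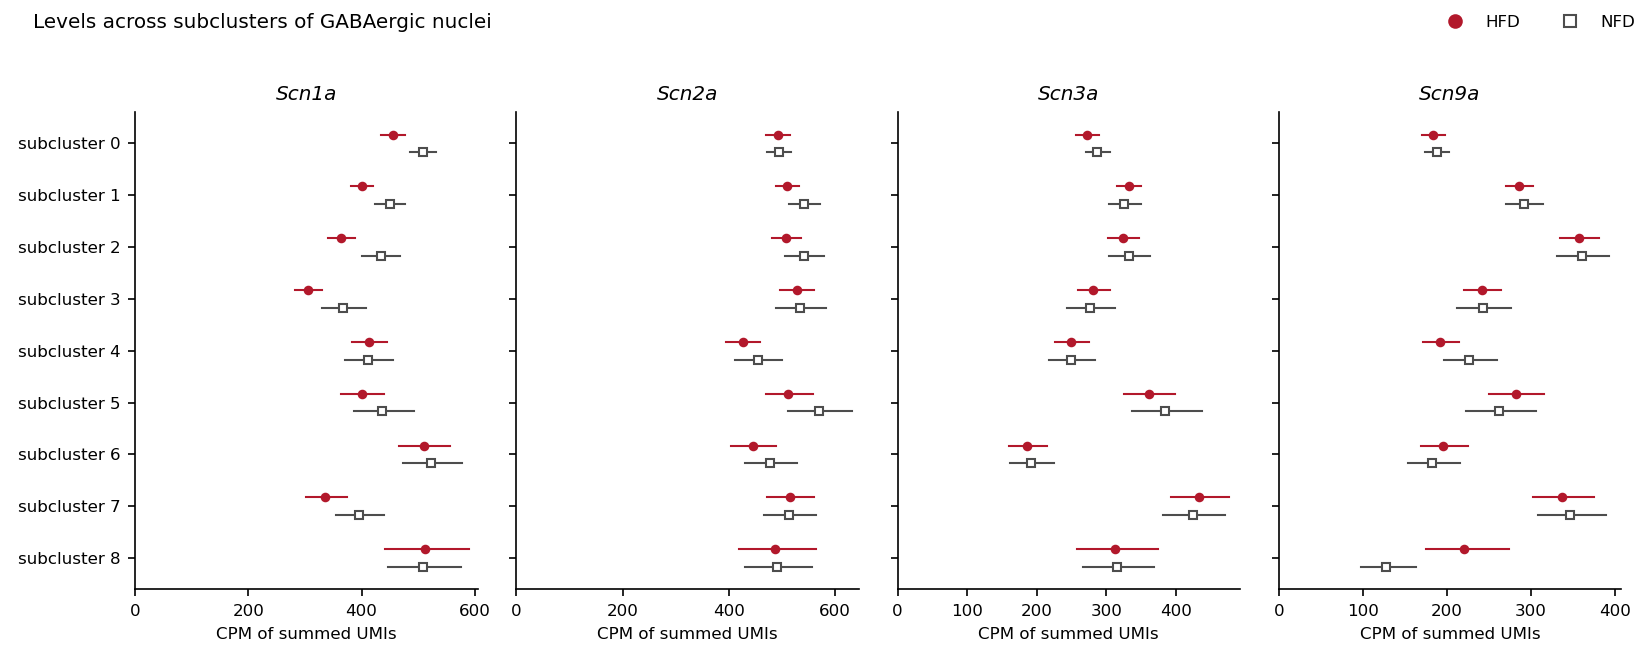
Levels of pore genes in the GABAergic subclusters, in CPM, with HFD and NFD points and bars for counting intervals. Scn9a is higher in subcluster 2 (357 CPM in HFD, 361 CPM in NFD) than in subcluster 0 (184 and 188 CPM). In subcluster 8 its HFD and NFD points stand apart (221 and 128 CPM, on 82 and 62 UMIs).

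In non-neuronal nuclei, each member's level was set beside 8 neuronal markers (Snap25, Syt1, Rbfox3, Stmn2, Snhg11, Meg3, Syn1 and Grin1), as percent of the level in neuronal nuclei of the same library. In oligodendrocyte precursors (47 HFD and 57 NFD nuclei) the summed markers were at 7.52% in HFD and 7.03% in NFD, the highest single marker at 47.8 and 41.7%. Nalcn was at 111% in HFD and 129% in NFD of its neuronal level, or 640 and 767 CPM. Scn3a was at 105 and 94.8%, and Scn1a at 69.5 and 54.7%. All 3 lay above the highest marker in both libraries. Scn9a had 0 UMIs in HFD and 3 in NFD precursors, against 56 and 36 UMIs of Scn1a.

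Pericyte or fibroblast nuclei (35 HFD and 32 NFD) held Nalcn at 116% in HFD and 147% in NFD of its neuronal level, on 38 and 39 UMIs, with the markers at 16.2 and 20.5%. Its accessory gene Unc79, needed for a working leak channel, had 2 and 4 UMIs there. The other accessory genes are not given for these nuclei. Ependymal nuclei, which line the ventricles, held Scn3b at 128% in HFD and 96.4% in NFD of its neuronal level, on 47 and 17 UMIs, with the markers at 6.11 and 13.8%. Astrocytes held Scn8a at 28.8% in HFD and 24.5% in NFD, with the highest marker at 10.7 and 11.1%. In microglia, endothelial cells and oligodendrocytes the markers themselves stood at 43.6, 21.6 and 34.1% in HFD and at 25.5, 42.9 and 26.9% in NFD. Nalcn lay on the same side between libraries as these markers: it was at 264 CPM in HFD and 77.3 CPM in NFD microglia, and at 113 CPM in HFD and 297 CPM in NFD endothelial nuclei. Some members did not. In microglia Scn3a, Scn2b and Scn3b went the other way, Scn3a at 62.3 CPM in HFD and 96.6 CPM in NFD. In oligodendrocytes Scn3a, Scn9a and Scn3b did so. Scn9a was nearly level in endothelial nuclei, at 84.2 and 86.0 CPM. The part of neuronal RNA in these levels was not tested.

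**Figure D3:**
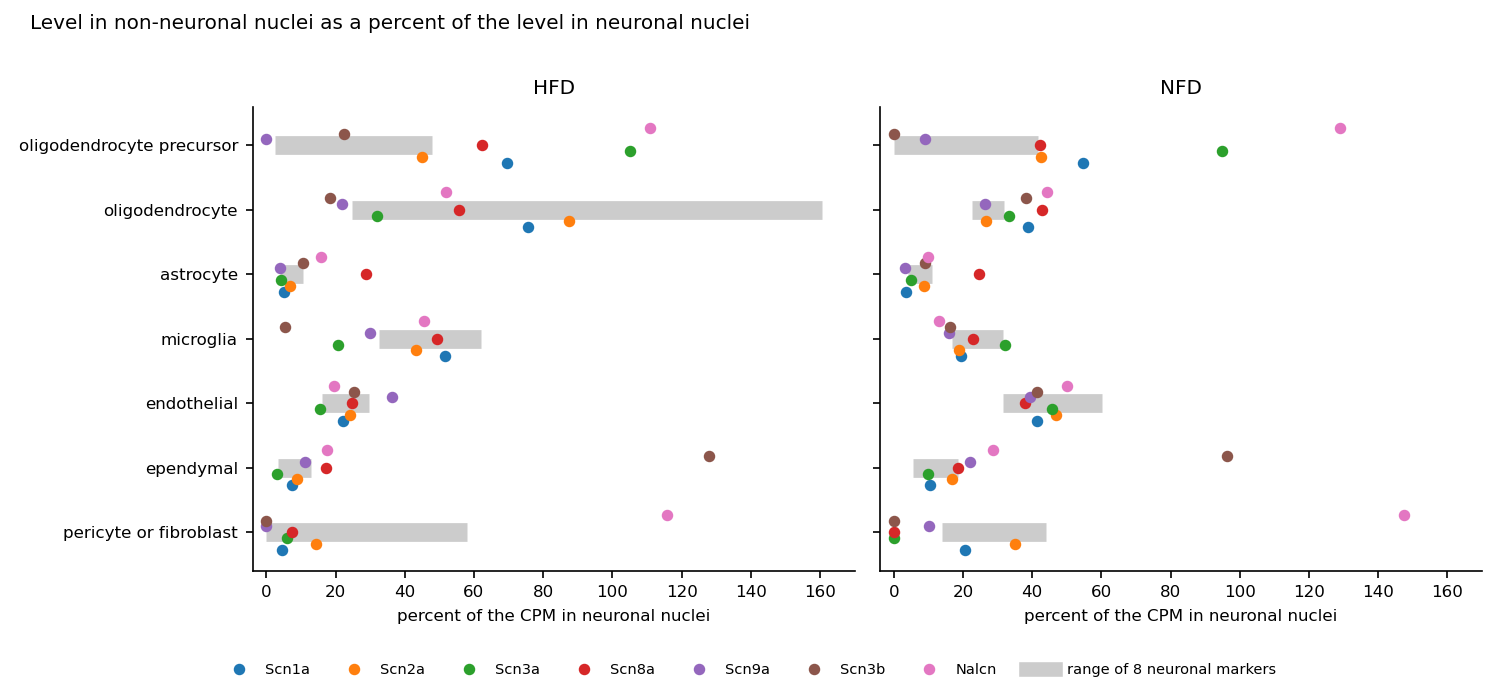
Levels of members in non-neuronal groups as percent of the level in neuronal nuclei of the same library, HFD and NFD, beside the range of 8 neuronal markers. Nalcn in oligodendrocyte precursors (111% in HFD, 129% in NFD) and Scn3b in ependymal nuclei (128 and 96.4%) lie above every marker.

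The next comparison asks whether these genes differed between diets in vlPAG neurons. A ratio counts as past the fold used here when it is at least 1.2-fold in either direction with at least 100 UMIs over both libraries. In GABAergic nuclei 0 of 8 measured members were past it, beside 25.3% of 12839 genes, and in glutamatergic nuclei 0 of 8, beside 27.9% of 11026. Shares of all genes here and below take in genes with as few as 100 UMIs and were not matched to the members on UMIs. Scn1a alone had 8083 UMIs in HFD and 6743 in NFD GABAergic nuclei. A count of 0 is thus not read as greater stability than that of other genes. The median log2 ratio of HFD over NFD was -0.03 for the members and -0.05 for all genes in GABAergic nuclei, and -0.01 and -0.05 in glutamatergic nuclei.

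Scn1a had the lowest ratio of the pore genes in both classes. It was at 397 CPM in HFD (389 to 406) and 450 CPM in NFD (439 to 461) GABAergic nuclei, a log2 ratio of -0.18 (-0.23 to -0.13). In glutamatergic nuclei it was at 382 CPM in HFD and 432 CPM in NFD, also -0.18 (-0.24 to -0.11). These ratios are below the median of all genes, and inside the 1.2-fold limit. Over the 12 neuronal clusters the Scn1a ratio was below 0 in 11, with a range of -0.31 to 0.04 and a median of -0.19. Among genes with enough UMIs in all 12 clusters, 9.92% of 3718 were below 0 in at least 11. The exception was GABAergic cluster 7, led by Satb1, at 463 CPM in HFD and 451 CPM in NFD. In glutamatergic cluster 18 the ratio was past 1.2-fold, at 311 CPM in HFD and 386 CPM in NFD, -0.31 (-0.52 to -0.11), where 21.0% of genes were past it downward. Other signals also differed between libraries in these neuronal nuclei. The 7 granule neuron markers summed to 16.1 CPM in HFD and 6.74 CPM in NFD (6 higher in HFD, 1 at 0 in both), the 8 endothelial markers to 12.3 and 19.9 CPM (0 higher), the 10 astrocyte markers to 45.2 and 58.5 CPM (1 higher), and mitochondrial counts to 0.341 and 0.446%. Their part in the Scn1a and Scn8a ratios was not tested. The antisense model Gm13630 at Scn1a, with 13.7 CPM in HFD and 15.2 CPM in NFD GABAergic nuclei, had a log2 ratio of -0.15 (-0.41 to 0.11).

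Scn8a went the other way in 10 of 12 clusters, as did 24.0% of genes, with a median of 0.09. Its log2 ratio was 0.13 in glutamatergic nuclei (0.04 to 0.21) and 0.03 in GABAergic nuclei (-0.04 to 0.09). In glutamatergic cluster 12 it was past 1.2-fold, at 224 CPM in HFD and 182 CPM in NFD, a log2 ratio of 0.30 (0.04 to 0.57), where 14.0% of genes were past the fold upward.

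Scn2a, Scn3a, Scn9a and Nalcn did not share a direction over the clusters. In GABAergic nuclei Scn2a had a log2 ratio of -0.06 (-0.10 to -0.02) and Scn9a of 0.05 (-0.01 to 0.11). Scn3a was at 302 CPM in HFD and 303 CPM in NFD, and Nalcn at 599 and 600 CPM. The counting intervals of these 4 ratios all lie within 1.2-fold. Scn2a was below 0 in 9 of 12 clusters, Nalcn in 7, and Scn3a and Scn9a in 6 each.

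**Figure D4:**
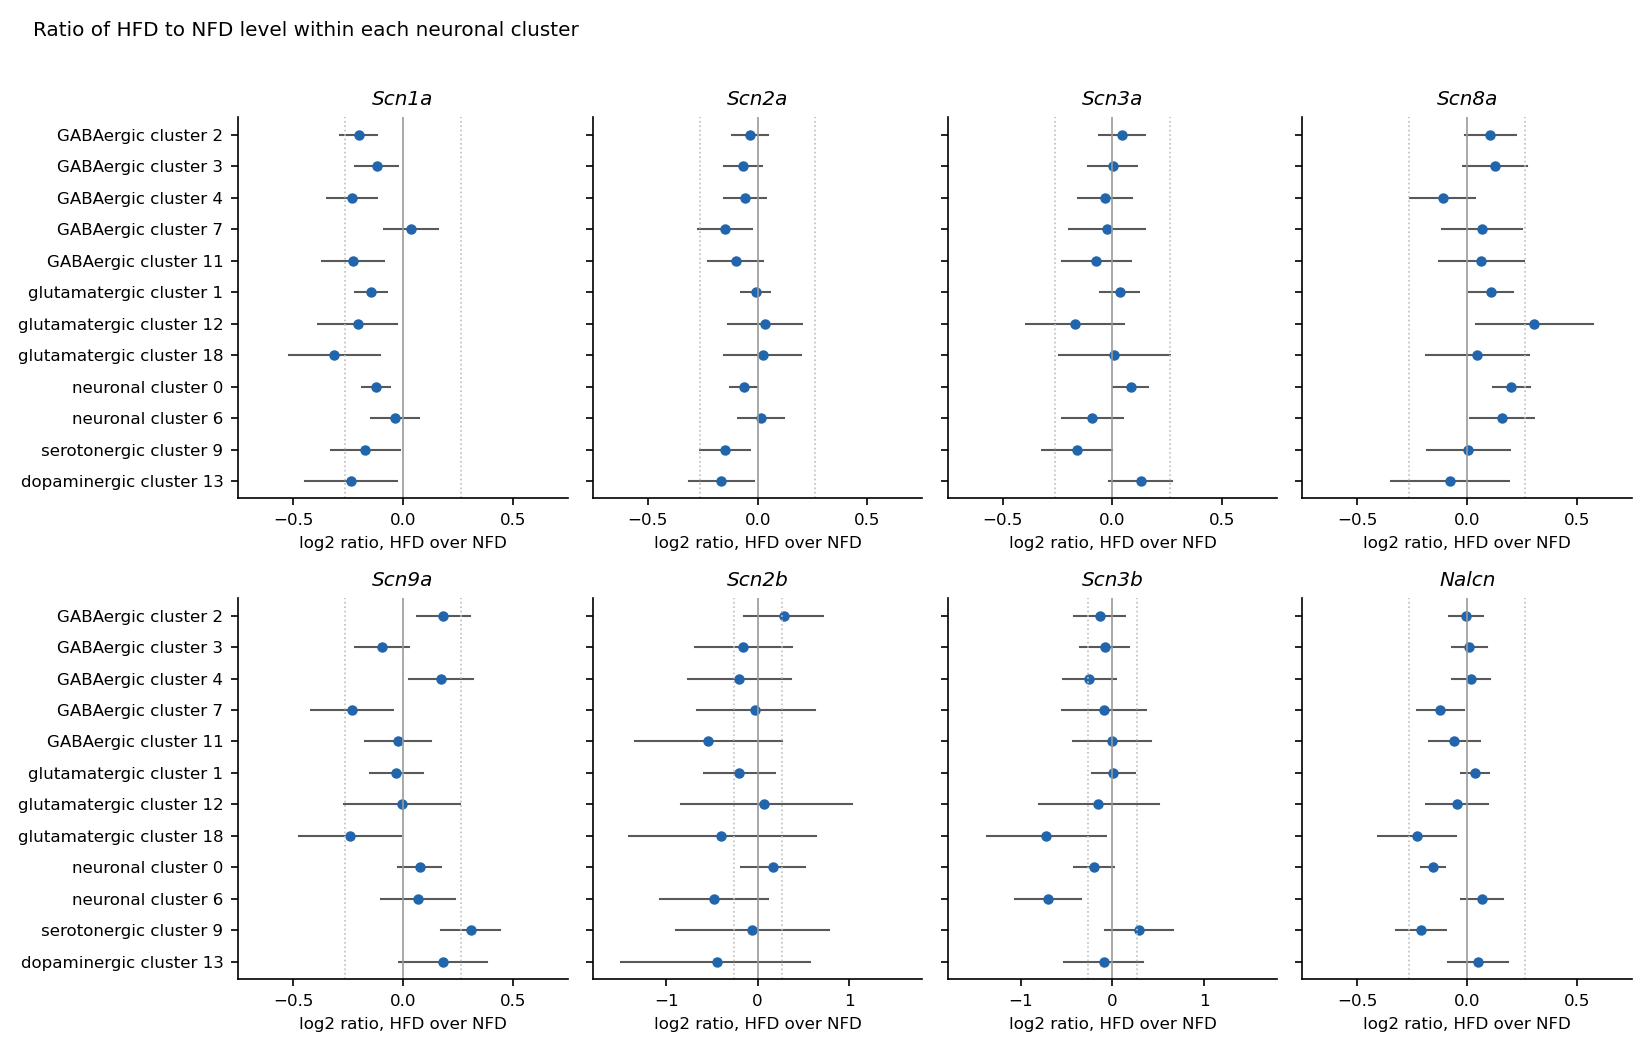
Log2 ratio of HFD over NFD CPM for 8 members in the 12 neuronal clusters, with exact binomial counting intervals, and the 1.2-fold limits drawn. Scn1a lies below 0 in 11 of 12 clusters, Scn8a above 0 in 10, and Scn9a has its highest ratio in serotonergic cluster 9 (0.31).

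The β subunits had wider intervals. Scn3b had a log2 ratio of -0.10 in GABAergic nuclei (-0.24 to 0.04), and Scn2b of -0.08 (-0.32 to 0.17). In cluster 6 both were past 1.2-fold downward, as were 17.6% of genes there. Scn3b was at 34.1 CPM in HFD and 55.6 CPM in NFD on 131 UMIs each, a log2 ratio of -0.71 (-1.07 to -0.35). Scn2b was at 14.3 CPM in HFD and 20.0 CPM in NFD, -0.48 (-1.07 to 0.11). In cluster 2 Scn2b was past upward, as were 8.32% of genes, at 20.4 CPM in HFD and 16.8 CPM in NFD, 0.28 (-0.15 to 0.72).

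In serotonergic nuclei 2 of 7 measured members were past 1.2-fold, beside 32.6% of 6341 genes. Scn9a, with 1269 UMIs in HFD and 728 in NFD, had a log2 ratio of 0.31 (0.18 to 0.44), the highest of Scn9a over the 12 clusters. Scn3b had 0.29 (-0.08 to 0.67). Nalcn was at -0.21 (-0.33 to -0.10), inside the limit, and Scn1a, Scn2a and Scn3a were at -0.17, -0.15 and -0.16. The 7 serotonergic markers summed to 4990 CPM in HFD and 4113 CPM in NFD of these nuclei, a log2 ratio of 0.28 with 6 of 7 higher, and the 11 glutamatergic markers to 138 and 243 CPM. Whether the make-up of the cluster or the depth gap has a part in the Scn9a ratio was not tested. After thinning to 2000 UMIs the Scn9a log2 ratio was 0.58, and among nuclei of 2000 to 20000 UMIs 0.30.

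In dopaminergic nuclei 0 of 7 measured members were past 1.2-fold, beside 29.7% of 4708 genes. Scn1a had a log2 ratio of -0.24 (-0.45 to -0.03), Scn9a of 0.18 (-0.02 to 0.38) and Scn3a of 0.13 (-0.02 to 0.27).

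Partner genes of these channels were taken from a list. The share of all genes past 1.2-fold in GABAergic nuclei, 25.3% of 12839, stands beside each count below and was not matched on UMIs. The Nalcn complex needs Unc79, Unc80 and Fam155a, and all 3 were measured and inside 1.2-fold in GABAergic nuclei. Fam155a was at 2930 CPM in HFD and 2786 CPM in NFD, Unc80 at 678 and 728 CPM, and Unc79 at 438 and 411 CPM. In oligodendrocyte precursors, where Nalcn was high, Fam155a was at 2586 CPM in HFD and 2709 CPM in NFD, and Unc79 at 388 and 363 CPM. Unc80 is not given for the precursors, so these values do not show whether they hold the whole set. The FGF homologous factors, which bind the tail of the pore protein, had 4 of 4 measured in GABAergic nuclei and 0 past, Fgf14 with the most UMIs at a log2 ratio of 0.06 (0.04 to 0.07). Of 10 anchors and modulators of the initial segment 9 were measured there and 0 were past. Ank3, which tethers sodium channels at the initial segment, had 0.01 (-0.02 to 0.03), and Ank2 0.05 (0.03 to 0.08). Nedd4l, a ubiquitin ligase that removes channels from the membrane, had 0.18 in GABAergic nuclei (0.12 to 0.23) and 0.21 in glutamatergic nuclei (0.15 to 0.27).

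Of 6 other sodium channel subunit genes on the list, 3 were measured in GABAergic nuclei. Of these, 1 was past 1.2-fold upward and 1 downward (lowest log2 ratio -0.35), beside 5.9 and 19.4% of genes. The 1 upward was Scn7a, a channel homologue that senses sodium concentration in glia and neurons. Scn7a was at 24.2 CPM in HFD and 19.2 CPM in NFD GABAergic nuclei, a log2 ratio of 0.34 (0.12 to 0.55). In glutamatergic nuclei 2 of the 6 were measured, 1 past upward (0.27) and 1 downward, beside 8.01 and 19.9% of genes. The 1 downward was Scn7a, at 11.4 CPM in HFD and 16.8 CPM in NFD, -0.56 (-0.92 to -0.20). In serotonergic nuclei Scn7a was the only 1 measured. It had 198 UMIs in HFD and 76 in NFD, 67.7 and 36.6 CPM, 0.89 (0.50 to 1.29), where 15.1% of genes were past upward. Whether the ratios of the groups differ was not tested.

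The genes most like each member were found by Pearson's r of log2 levels over 18 clusters with at least 50 nuclei in both libraries, among 9200 genes. These r values mostly follow the split between neurons and other cells and are descriptions. Sv2a, a synaptic vesicle protein, was closest to Scn1a (0.98), followed by Gm13629, the antisense model at the neighbouring Scn9a (0.98). Celf4, a neuronal RNA-binding protein, was closest to Scn2a (0.99), Syt16 to Scn3a (0.99), Camta1 to Scn8a (0.98) and Cacng3, an AMPA receptor auxiliary subunit, to Scn9a (0.96). For the others they were Nsg1 for Scn2b (0.97), D630045J12Rik for Scn3b (0.94), Dtd1 for Nalcn (0.98) and Rgs6 for Scn4b (0.75), which has few UMIs.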

How the data were processed

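Nuclei of pooled vlPAG were captured with the 10x 3′ kit in 1 library per diet. The authors deposited UMI counts, as whole numbers for each gene in each nucleus. The submitters' processing notes name bcl2fastq (5.01), Cell Ranger (4.0.0 in the matrix header), Seurat (3.1.1) and the build GRCm38. Whether introns or strand entered the counting is not stated in the sources read here. Nuclei with over 500 UMIs and below 20% mitochondrial counts were clustered together in Seurat 5.3.0 (R 4.3.3; 2000 variable genes without the sodium channel genes, 20 principal components, resolution 0.5, and 0.1 for GABAergic nuclei). Clusters were named from marker lists, and the naming rule was set after the clusters were seen. Neuronal clusters took a transmitter where its genes exceeded the other by 2-fold, unless their 10 leading genes held more markers of another class. Scrublet (scanpy 1.11.5) called 0 HFD and 1 NFD doublet and was not used, so likely doublets were kept. Summed counts gave CPM with exact Poisson intervals. The log2 ratios had intervals from an exact conditional binomial, and shares had Clopper-Pearson intervals, all at 95% (Python 3.11.15, numpy 2.4.6, scipy 1.17.1, pandas 2.3.3). Ratios were also computed on simulated counts with known folds. All members are named, and the other genes follow a list and a rule on UMIs. Members, lists and settings were chosen with earlier results of these data known. Fam155b was not analysed here. Of the listed genes, 1 is not reported here.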

Additional observations from a re-analysis of the deposited data

How the results depend on the processing

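Scn1a kept a log2 ratio of HFD over NFD below 0 in all 15 alternatives for GABAergic nuclei (-0.21 to -0.13) and all 16 for glutamatergic nuclei (-0.33 to -0.08). Scn9a in serotonergic nuclei ranged from 0.29 to 0.58 over 12 alternatives and was past 1.2-fold in all 12, and Scn3b there from 0.13 to 0.30, past in 8. Serotonergic Nalcn (down to -0.44) and Scn1a (to -0.39) and dopaminergic Scn1a (to -0.41), inside 1.2-fold as reported, were past it downward in 3 of 12 each, among them nuclei of 2000 to 20000 UMIs (-0.30, -0.37 and -0.41) and nuclei weighted equally (-0.33, -0.39 and -0.36). The count of GABAergic members past 1.2-fold, 0 as reported, became 1 (Scn2b, log2 0.28) after thinning to 2000 UMIs. The glutamatergic count, also 0, became 2 at resolution 0.2 (Scn1a and Scn3b lower, with 116 HFD and 112 NFD nuclei in the class), 2 with the sodium channel genes kept among the variable genes (Scn2b and Scn3b lower), and 1 (Scn3b lower) with 3000 variable genes, with clusters weighted equally and without cluster 1. The last 2 were chosen after seeing the data. The cause was not tested. The count of 8 members higher in neuronal nuclei held in every alternative run. No contrast between cell groups changed sign in its 4 alternatives, but Scn3a in HFD dopaminergic over GABAergic nuclei was 0.32 and Scn2a in granule neuron-like over GABAergic nuclei 0.55 at the lowest, on the share of thinned nuclei. No paired analysis was possible because each diet is 1 library and the labels give no replicate numbers. Depth limits Scn4b and the non-neuronal values, and pooling, dissection and library cannot be told apart from diet.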
